A study of Mus musculus with 20 samples.

Results

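Ucp1, Cidea, Ppargc1a, Prdm16, Dio2, Elovl3, Cox8b, Cox7a1, Adrb3 and Tmem26 are genes by which heat-producing fat cells are recognised. They were taken by symbol from the deposited count tables, and all 10 were found among the 24062 genes counted. The libraries came from male C57BL/6N mice on chow, and poly(A) RNA was sequenced as 100-nucleotide single-end reads. Inguinal white adipose tissue (iWAT, the fat pad of the groin) gave 5 libraries labelled Klf14 knockout (KO; 4 at 21 weeks of age and 1 at 19 weeks) and 5 labelled wild type (WT; 2 at 21 weeks, 2 at 19 weeks and 1 at 18 weeks). The pituitary gave 5 libraries with each label and the same ages. The series title calls the deletion germline, and the labels name no allele. Libraries are called here by label and by the number in their title, taken as a mouse number, such as KO 50 or WT 48.

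Beige fat cells are adipocytes within white depots that can switch on a heat-producing programme like that of brown fat. Cold acts through sympathetic nerves, noradrenaline binds beta-adrenergic receptors on the fat cell, cAMP rises, and the cell burns lipid in mitochondria whose inner membrane UCP1 makes leaky to protons. The inguinal depot is the classic site of this response in mice. Klf14 encodes a Krüppel-like transcription factor.

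Total counts were 14.8 to 18.7 M (mega) in iWAT and 13.6 to 17.6 M in the pituitary. Before TMM scaling, 3 counts, the limit used for detection, correspond to 0.161 to 0.203 counts per M in iWAT and 0.170 to 0.221 in the pituitary. Levels are given as CPM, the counts per M of a library's total after TMM scaling. The targeted gene was not lower under the KO label. In the pituitary each library labelled KO held more Klf14 counts (417 to 679) than any labelled WT (196 to 304). In iWAT the ranges overlapped, at 8 to 46 counts in KO and 1 to 49 in WT. KO and WT therefore name labels throughout. Adipocyte markers (12 genes such as Adipoq and Plin1) summed to 10682 to 36751 CPM in KO and 10535 to 24216 CPM in WT iWAT, with none at 0, and to 64.2 to 93.8 CPM in the pituitary. Several iWAT libraries stood apart. KO 50 held 32.1 CPM of summed B and T cell markers (12 genes), against 522 CPM or more in each of the other iWAT libraries. KO 31 held 709.7 CPM of skeletal muscle markers (14 genes), against at most 258.7 CPM elsewhere in iWAT. KO 32 held 113.4 CPM of growth hormone and prolactin cell markers (4 genes), against at most 1.13 CPM in the other iWAT libraries. KO 66 and WT 34 held 108.2 and 202.6 CPM of epithelial and skin markers (8 genes), against at most 40.9 CPM in the other iWAT libraries. KO 50 held 7761 CPM of blood markers (5 genes), against at most 4002 CPM.

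Noradrenaline raises cAMP, and the cAMP response element is built around the letters TGACG, so the 250 bases before the start of each gene in RefSeq (build GRCm38.p6) were read on both strands for that motif. Windows were searched for 7 members, and 3 held it, as did 17.8% of all 32851 windows of that length. The windows shown are those of Ucp1, of Cox8b and Cox7a1, whose levels moved most closely with Ucp1 across iWAT libraries together with Cidea, and of Ppargc1a and Dio2, which held the motif. They lie at chr8:83290098-83290347 on the plus strand (Ucp1), chr7:140900447-140900696 on the minus strand (Cox8b), chr7:30183921-30184170 on the plus strand (Cox7a1), chr5:51567726-51567975 on the minus strand (Ppargc1a) and chr12:90739039-90739288 on the minus strand (Dio2). Each is written from 5′ to 3′ on the strand of its gene, with the motif in capitals (on the opposite strand it reads CGTCA).
Ucp1 promoter: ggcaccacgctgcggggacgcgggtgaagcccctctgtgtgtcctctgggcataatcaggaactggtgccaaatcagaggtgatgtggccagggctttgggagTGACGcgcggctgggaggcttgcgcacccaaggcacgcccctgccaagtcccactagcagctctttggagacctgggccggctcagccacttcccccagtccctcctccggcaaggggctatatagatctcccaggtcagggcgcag
Cox8b promoter: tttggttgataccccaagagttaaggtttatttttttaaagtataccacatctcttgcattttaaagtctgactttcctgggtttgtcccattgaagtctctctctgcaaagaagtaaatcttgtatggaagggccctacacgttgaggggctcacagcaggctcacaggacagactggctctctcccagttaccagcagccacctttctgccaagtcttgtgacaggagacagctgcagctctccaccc
Cox7a1 promoter: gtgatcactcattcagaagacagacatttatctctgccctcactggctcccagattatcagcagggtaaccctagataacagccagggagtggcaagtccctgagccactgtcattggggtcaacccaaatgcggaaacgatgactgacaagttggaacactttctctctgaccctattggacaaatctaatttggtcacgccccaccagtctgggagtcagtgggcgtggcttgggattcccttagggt
Ppargc1a promoter: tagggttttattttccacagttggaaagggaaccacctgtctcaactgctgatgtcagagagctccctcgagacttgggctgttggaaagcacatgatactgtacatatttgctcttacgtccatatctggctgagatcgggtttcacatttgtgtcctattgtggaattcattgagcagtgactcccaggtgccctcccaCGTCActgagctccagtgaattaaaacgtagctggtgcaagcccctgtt
Dio2 promoter: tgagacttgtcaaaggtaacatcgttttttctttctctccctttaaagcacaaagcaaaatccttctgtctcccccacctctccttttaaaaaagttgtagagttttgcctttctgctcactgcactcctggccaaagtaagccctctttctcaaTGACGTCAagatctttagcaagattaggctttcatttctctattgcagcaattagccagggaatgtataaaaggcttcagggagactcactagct
The first base of the motif lay 147 bases before the start in Ucp1 and 49 bases before it in Ppargc1a. In Dio2 the motif occurred on both strands, at 95 and 92 bases before the start, and the overlapping pair spelled the full palindrome TGACGTCA, which 1.55% of all windows held. The RefSeq starts of Ppargc1a and Dio2 lie upstream of the gene models whose exons were counted. The windows of Cox8b, Cox7a1, Prdm16 and Tmem26 did not hold these letters, which says nothing about whether a factor binds there.

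The question of the first comparison was whether the thermogenic genes differ between KO and WT iWAT. No difference passed the test: 0 of 10 members did, and 0 of all 16105 genes tested (0%). The KO and WT libraries overlapped for each member. Across all genes the groups did not overlap for 0.0807%. At an unadjusted p under 0.05 there were 89 genes (0.553%) and none of the 10, and DESeq2 also called 0 genes. The log2 fold change was positive for 3 members and negative for 7, with a median of −0.12 against −0.00 over all genes, and edgeR's Benjamini-Hochberg adjusted p was 0.9999 for each.

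Ucp1 encodes the uncoupling protein itself (mm10, chromosome 8, 83290348 to 83298456, plus strand, 6 exons). Its level was 1.46, 4.76, 0.306, 20.03 and 0.239 CPM in KO 31, KO 32, KO 35, KO 50 and KO 66. In WT 33, WT 34, WT 48, WT 49 and WT 56 it was 2.26, 0.897, 112.8, 7.33 and 4.32 CPM. These rest on 4 to 266 counts in KO and 14 to 1862 counts in WT. WT 48 alone lay above every KO library, and KO 35 and KO 66 lay below every WT library. The means were 5.36 ± 8.40 CPM in KO and 25.5 ± 48.9 CPM in WT (SD, n = 5 each), and the medians 1.46 and 4.32 CPM. The fitted log2 fold change was −2.33 (SE 1.48), with 2 standard errors on each side spanning −5.29 to 0.62. An exact two-sided permutation test on log2 CPM gave p = 0.317, where the smallest possible p is 0.00794. Without WT 48 the log2 fold change was 0.47, and among mice of 21 weeks it was 0.07.

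Cidea, a lipid-droplet protein of brown and beige adipocytes (chromosome 18, 67343564 to 67367794, plus strand, 5 exons), was at 7.34, 52.5, 12.6, 143.6 and 9.20 CPM in KO 31, KO 32, KO 35, KO 50 and KO 66, against 19.2, 17.6, 104.5, 48.1 and 55.2 CPM in WT 33, WT 34, WT 48, WT 49 and WT 56. KO 50 and WT 48 were again the high libraries. The log2 fold change was −0.17 (SE 0.85), and without KO 50 it was −1.28. Cox8b (chromosome 7, 140898942 to 140900446, minus strand) and Cox7a1 (chromosome 7, 30184171 to 30186030, plus strand) encode the tissue-restricted isoforms of cytochrome c oxidase subunits found in muscle and brown fat. Cox8b was at 9.34, 30.8, 12.2, 74.5 and 10.9 CPM in KO and 14.5, 15.3, 46.3, 30.5 and 30.1 CPM in WT, in the same library order. Cox7a1 was at 1.84, 3.96, 1.71, 4.89 and 2.21 CPM in KO and 2.20, 1.86, 13.3, 2.55 and 3.996 CPM in WT. KO 50 was highest of all for Cox8b, and WT 48 highest of all for Cox7a1. Their log2 fold changes were −0.04 (SE 0.60) and −0.75 (SE 0.58), and without WT 48 that of Cox7a1 was 0.10.

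**Figure D1:**
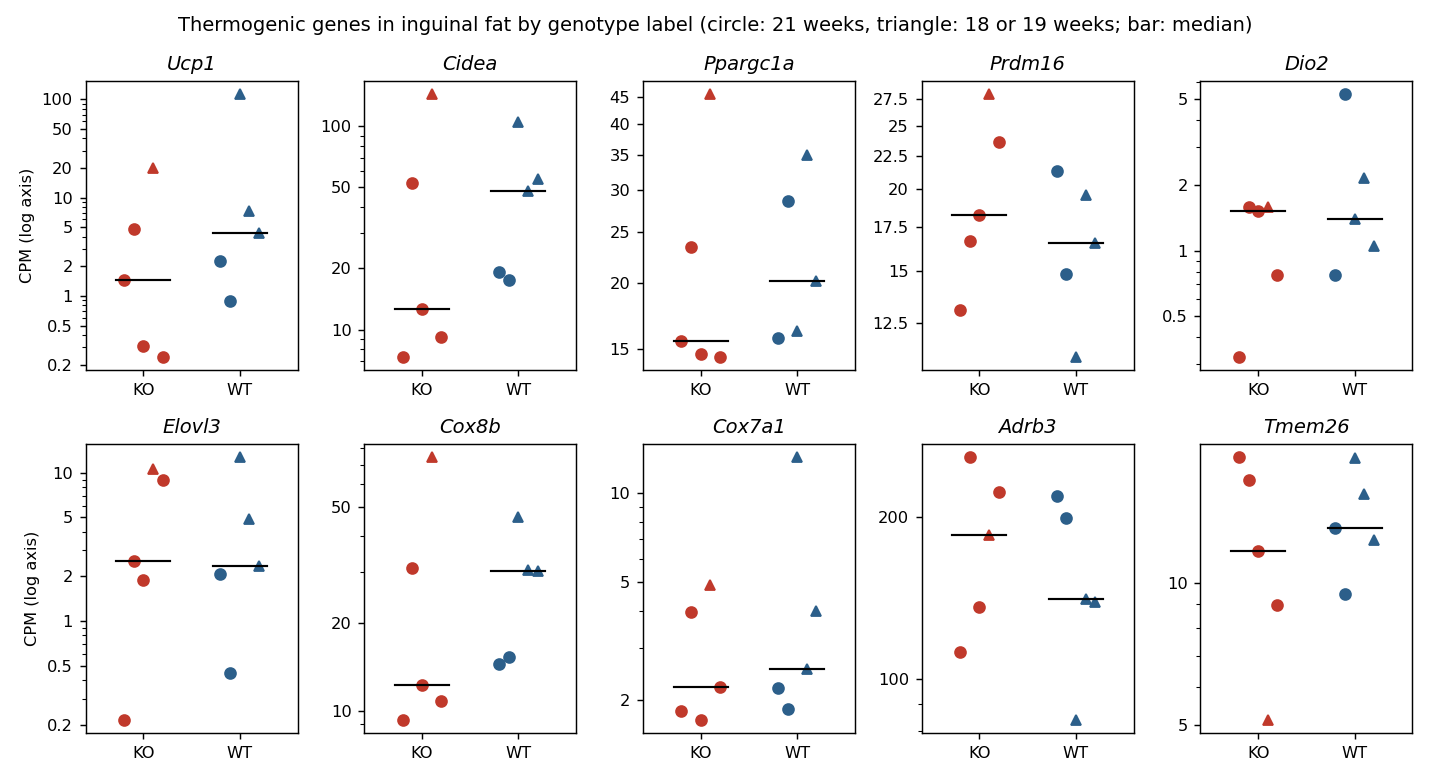
CPM of each thermogenic gene (log axis, 1 panel per gene) in the iWAT libraries labelled KO and WT, where circles are mice of 21 weeks, triangles mice of 18 or 19 weeks and bars the median of 5 libraries. The KO and WT points overlap in every panel, and Ucp1 runs between 0.239 and 20.03 CPM in KO and between 0.897 and 112.8 CPM in WT.

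The regulators of the programme varied less. Ppargc1a encodes PGC-1α, the coactivator that drives mitochondrial biogenesis (chromosome 5, 51454249 to 51553921, minus strand, 13 exons). It was at 15.5, 23.3, 14.6, 45.5 and 14.5 CPM in KO and 15.7, 28.6, 16.2, 34.9 and 20.2 CPM in WT, in the same library order. KO 50 was highest, and WT 48, highest for Ucp1, was among the lower 5 of the 10 libraries. Prdm16, a zinc finger protein that specifies brown and beige identity (chromosome 4, 154316125 to 154636873, minus strand, 17 exons), averaged 19.9 ± 5.88 CPM in KO and 16.7 ± 4.03 CPM in WT (SD, n = 5 each). Its lowest library was WT 48 at 11.1 CPM and its highest KO 50 at 27.9 CPM. The log2 fold changes were −0.07 (SE 0.36) for Ppargc1a and 0.23 (SE 0.23) for Prdm16.

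Adrb3 encodes the beta-adrenergic receptor typical of rodent adipocytes (chromosome 8, 27225776 to 27229588, minus strand, 4 exons) and was the most abundant member by CPM. It was at 112.4, 259.2, 136.1, 185.7 and 223.1 CPM in KO and 219.1, 199.4, 83.9, 140.9 and 139.3 CPM in WT, in the same library order. The lowest value was that of WT 48, the library with the most Ucp1. The log2 fold change was 0.21 (SE 0.29). Tmem26, a surface marker of mouse beige precursors (chromosome 10, 68723746 to 68782654, plus strand, 6 exons), averaged 12.2 ± 5.48 CPM in KO and 13.7 ± 3.37 CPM in WT. Its lowest library was KO 50 at 5.12 CPM, and its log2 fold change was −0.20 (SE 0.32).

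Dio2 encodes the type II deiodinase that makes active thyroid hormone inside the cell (chromosome 12, 90724552 to 90738438, minus strand, 2 exons). It was barely present in iWAT, with 6 to 25 counts in KO and 12 to 82 counts in WT. The means were 1.16 ± 0.579 CPM in KO and 2.12 ± 1.82 CPM in WT (SD, n = 5 each). The highest library was WT 34 at 5.25 CPM, which also held the most epithelial and skin marker RNA (202.6 CPM). KO 66, with 108.2 CPM of these markers, had 0.777 CPM of Dio2, and their part in the Dio2 level was not tested. The log2 fold change was −0.91 (SE 0.59), and −0.24 without WT 34. Elovl3, an elongase of very long chain fatty acids (chromosome 19, 46131899 to 46135694, plus strand, 4 exons), was at 0.216, 2.52, 1.90, 10.6 and 8.96 CPM in KO 31, KO 32, KO 35, KO 50 and KO 66. In WT 33, WT 34, WT 48, WT 49 and WT 56 it was at 2.07, 0.448, 12.8, 4.91 and 2.36 CPM. High and low libraries occurred in both groups, and the log2 fold change was 0.06 (SE 0.95), or 0.96 without WT 48. Elovl3 shares exon bases with Pitx3, the sole such overlap among the members. Reads in those bases count for both genes, and Pitx3 averaged 0.296 CPM in iWAT.

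The members differed in how much they varied between libraries, which can be set against the spread of all genes. The SD of log2 CPM over the 10 iWAT libraries was 2.53 for Ucp1, larger than for 99.7% of the genes tested, whose median was 0.29. It was 1.73 for Elovl3, 1.48 for Cidea, 0.98 for Cox8b, 0.95 for Dio2 and 0.88 for Cox7a1, each larger than for at least 92.9% of genes. Ppargc1a (0.58), Tmem26 (0.56), Adrb3 (0.51) and Prdm16 (0.40) lay nearer the middle. They were still above 81.9%, 80.7%, 76.2% and 65.1% of genes in the same order. The highest iWAT library exceeded the lowest 472-fold for Ucp1 (83.8-fold without WT 48) and 2.52-fold for Prdm16.

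Members did not all vary together. Over the 10 libraries Cidea, Cox8b and Cox7a1 followed Ucp1 most closely, and the other members less closely. Pearson's r of log2 CPM with Ucp1 over 10 libraries was 0.90 for Cox7a1 (permutation p = 0.00048), 0.87 for Cidea (p = 0.00059) and 0.86 for Cox8b (p = 0.00134). Spearman's rho was 0.82 (p = 0.00579), 0.87 (p = 0.00215) and 0.88 (p = 0.00165) in the same order. Adjusted over all 16104 other genes tested, no gene passed: the Benjamini-Hochberg p was 0.9988 for each member by r and 0.729 or more by rho. An r of 0.7 or more was reached by 3 of the 9 other members and by 0.714% of all genes. Without the libraries farthest from the median Ucp1, WT 48 and KO 66, r was 0.86 for Cox7a1, 0.88 for Cidea and 0.89 for Cox8b (n = 8). Within the 6 libraries of 21 weeks it was 0.69, 0.71 and 0.69 in the same order, and after each group's mean was removed 0.90, 0.87 and 0.86. The smaller sets set these genes apart less clearly. With n = 8, r was 0.74 for Ppargc1a, 0.72 for Elovl3 and 0.60 for Prdm16. For Adrb3, Dio2 and Tmem26 it was 0.24, −0.01 and −0.35. At 21 weeks it was 0.71 for Tmem26 and 0.44 or less for the remaining members.

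**Figure D2:**
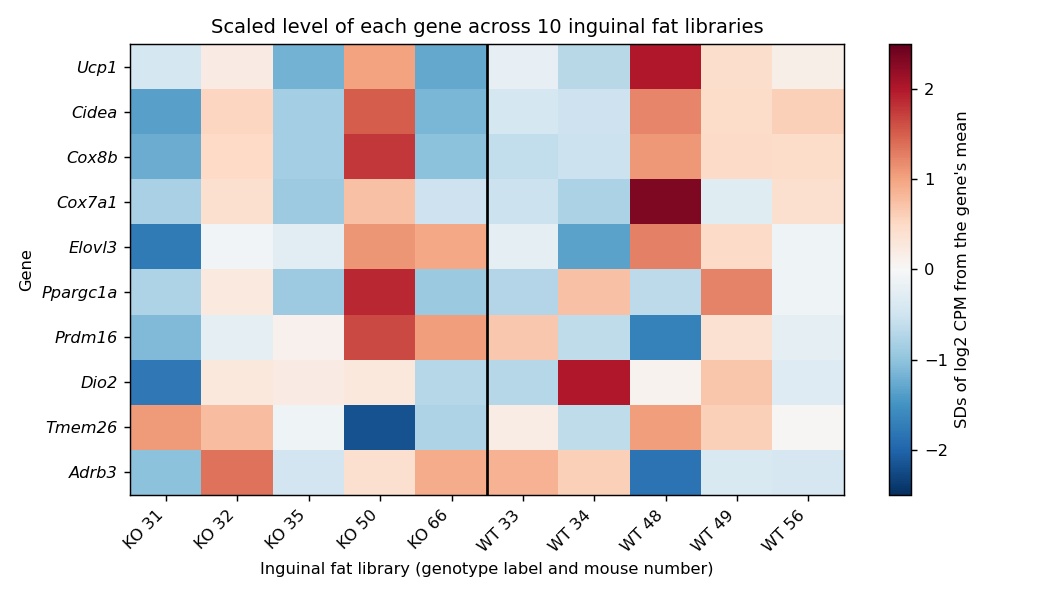
Scaled log2 CPM of the 10 thermogenic genes (rows) in the 10 iWAT libraries (columns, KO left and WT right), where colour gives the number of SDs from that gene's mean over the libraries. Ucp1, Cidea, Cox8b and Cox7a1 are red together in KO 50 and WT 48, while Prdm16 and Adrb3 are blue in WT 48 and Tmem26 is blue in KO 50.

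Elovl3 had an r of 0.52 (p = 0.125, rho 0.61), which was −0.28 within the libraries of 21 weeks. KO 66, the library with the lowest Ucp1, had 8.96 CPM of Elovl3 and 108.2 CPM of summed epithelial and skin markers. WT 34 had more of these markers (202.6 CPM) but 0.448 CPM of Elovl3. WT 48, highest for Elovl3 at 12.8 CPM, had 40.9 CPM of them. The part of these markers in the Elovl3 level was not tested. Ppargc1a had an r of 0.38 (permutation p = 0.277) and a rho of 0.67 (p = 0.0384). Its r was 0.78 without WT 48, in which Ucp1 was at 112.8 CPM and Ppargc1a at 16.2 CPM. For Adrb3 r was −0.45 (p = 0.198, rho −0.25) and for Prdm16 −0.25 (p = 0.480, rho −0.12), and both rested on WT 48, without which they were 0.02 and 0.28. Tmem26 gave 0.15 (p = 0.670, rho 0.33), and 0.71 without KO 50. Dio2 gave 0.10 (p = 0.772, rho 0.26).

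**Figure D3:**
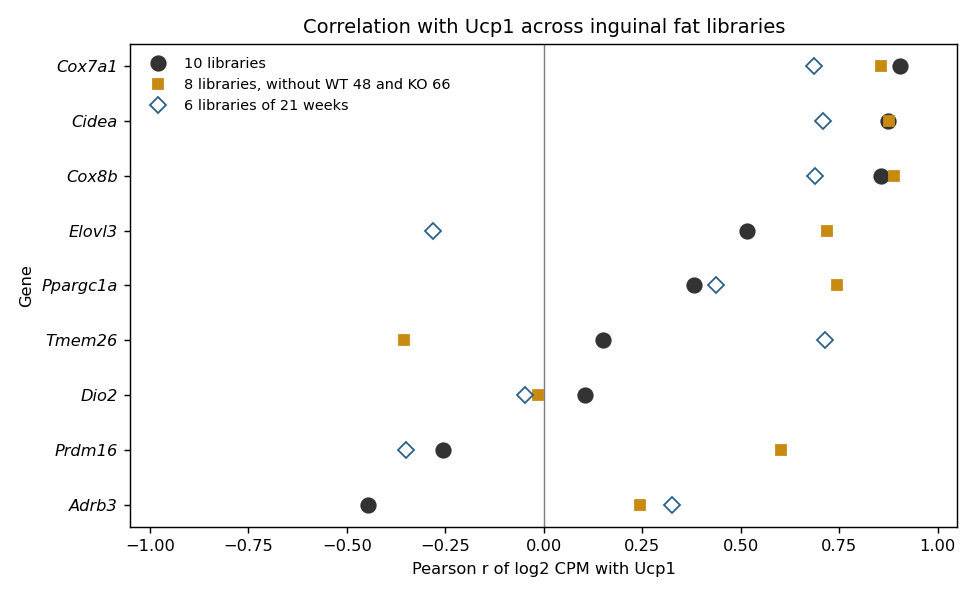
Pearson r of each gene's log2 CPM with that of Ucp1 in iWAT, for all 10 libraries (circles), for 8 libraries without WT 48 and KO 66 (squares) and for the 6 libraries of 21 weeks (diamonds). Cox7a1, Cidea and Cox8b stay between 0.69 and 0.90 in all of them, while Elovl3, Tmem26, Dio2, Prdm16 and Adrb3 lie on both sides of 0.

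Outside the members, the genes with the highest r with Ucp1 over the 10 iWAT libraries were Akr1b10 (0.97), Cpt1b (0.93), Otop1 (0.91), Clec4a4 (0.89), Mir677 (0.89), ChkbCpt1b (0.88), Gpr152 (0.88) and Hmg20b (0.87). Cpt1b encodes the muscle-type carnitine palmitoyltransferase that lets fatty acids into mitochondria, and ChkbCpt1b is a read-through gene counted over the same exons. Cpt1b was at 62.3 CPM in KO 50 and 64.1 CPM in WT 48, and between 7.28 and 26.5 CPM in the other iWAT libraries. Otop1, a proton channel, was at 14.9 CPM in KO 50 and 11.8 CPM in WT 48, and between 1.35 and 7.12 CPM in the others. When the members' scaled levels were averaged, the genes most like that mean included St3gal6 (r = 0.96), Hadhb (0.96), Acadvl (0.95), Adck3 (0.95), Fam195a (0.94), Tuba8 (0.94) and Zdhhc4 (0.94). Hadhb and Acadvl encode enzymes of mitochondrial fatty acid oxidation. These genes were picked for their r over all 16104 genes, so the values are a description.

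Genes that work around the members were then followed in the same iWAT libraries. The respiratory chain list also held Tfam, Nrf1 and Gabpa, which encode transcription factors. Of its 22 tested genes the median r with Ucp1 was 0.52, against −0.04 over all genes. In that list 1 gene reached 0.7: Cox5a, another cytochrome c oxidase subunit (0.73). Of 35 other brown and beige markers the median was 0.20, and Cpt1b, Otop1 and Letmd1 (0.76) reached 0.7. Gpd2, the mitochondrial glycerol phosphate dehydrogenase, was the sole one of 15 genes of UCP1-independent heat production to do so (0.83), and Elovl6 was the sole one of 18 paralogues of the members (0.78). None did so among 21 adrenergic and cAMP signalling genes (median 0.16), 27 transcriptional regulators of thermogenesis (0.12) and 9 thyroid hormone genes (0.18). In all 7 lists 0 genes passed between KO and WT iWAT, and the median log2 fold changes lay between 0.04 and 0.11.

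Other cell types were present in unequal amounts. WT 48, with the most Ucp1, had the lowest summed adipocyte markers of all 10 iWAT libraries (10535 CPM), while KO 50, second for Ucp1, had the highest (36751 CPM). KO 31, with the lowest Cidea and Cox8b, held the most muscle RNA (709.7 CPM), and all 14 muscle markers had a positive log2 fold change in KO (median 1.14, 0 called). Of the 12 adipocyte markers 10 were positive and 2 negative (median 0.07, 0 called), and of the 12 B and T cell markers 2 were positive and 10 negative (median −0.09, 0 called). The median r with Ucp1 was −0.06 over the adipocyte, −0.37 over the muscle, −0.34 over the B and T cell, 0.11 over the fibroblast, 0.36 over the endothelial, 0.46 over the macrophage, 0.13 over the blood, 0.10 over the nerve and −0.03 over the epithelial and skin markers, and none of them reached 0.7. In bulk tissue a change in the number of cells of a type and a change in RNA per cell cannot be told apart. With age per week beside the label in the fit, a setting chosen after the values were seen, 0 of 10 members and 0 of 16105 genes passed for age (0%); unadjusted, 3 members (Ucp1, Cidea and Cox8b, all with negative slopes) and 784 genes (4.87%) were under 0.05. With the muscle or the adipocyte score in the fit, 0 members passed, and the part of cell composition in the spread between libraries was not tested.

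**Figure D4:**
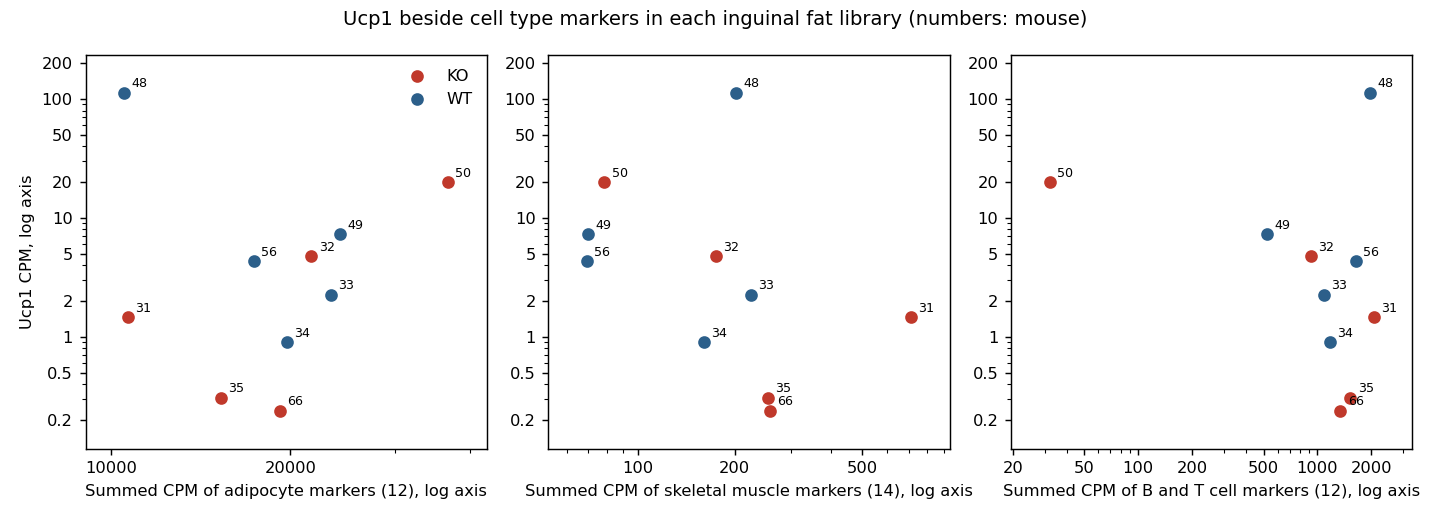
Ucp1 CPM (log axis) against the summed CPM of adipocyte, skeletal muscle, and B and T cell markers (log axes) in each iWAT library, with KO in red, WT in blue and the mouse number beside each point. WT 48 has the most Ucp1 and the lowest adipocyte sum, and KO 50 has the highest adipocyte sum and the lowest B and T cell sum.

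Set against the pituitary, the hormone gland at the base of the brain, 9 of the 10 genes were higher in iWAT and Dio2 was lower. All 10 passed, where 84.5% of the 17731 genes tested did (43.3% higher and 41.2% lower in iWAT), so passing in itself is no mark of these genes. Their median log2 fold change was 1.89, against 0.04 over all genes. Libraries of the 2 tissues did not overlap for 55.6% of genes. Among the members Adrb3, Cox8b, Ppargc1a and Tmem26 lay above the pituitary in every iWAT library, Dio2 lay below, and the other 5 overlapped.

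Adrb3 differed most. It summed to 26211 counts over 10 iWAT libraries and 4 counts over 10 pituitary libraries, 7 of which had none, and the ratio of counts per mega-count was 6173 (exact 95% interval 2411 to 22657, counting error only). Its fitted log2 fold change was 12.46 (SE 0.37), and 13.15 without the libraries of mouse 56. Ucp1 had 2454 counts in iWAT and 17 in the pituitary, a ratio of 136.0 (84.8 to 233.8). The Ucp1 log2 fold change was 6.68 (SE 1.19, adjusted p = 3.59e-05), 5.30 without mouse 48 and 6.08 without mouse 50. KO 35 and KO 66 had 0.306 and 0.239 CPM in iWAT, against a pituitary maximum of 0.288 CPM, where 4 counts were seen. Elovl3 had 720 and 8 counts (ratio 84.8, 42.8 to 197.1), and 5 of the 8 lay in pituitary KO 50, where Pitx3 also had 5 counts. Its log2 fold change was 6.38 (SE 0.90), and 7.70 without the libraries of mouse 50. Cox8b had 4113 and 62 counts (ratio 62.5, 48.6 to 81.7).

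The remaining members were expressed in both tissues. Ppargc1a averaged 22.9 ± 10.5 CPM in iWAT and 5.92 ± 0.954 CPM in the pituitary (SD, n = 10 each; log2 fold change 1.95, SE 0.22). Tmem26 averaged 13.0 ± 4.37 CPM in iWAT and 3.62 ± 0.729 CPM in the pituitary (1.84, SE 0.20), and Prdm16 18.3 ± 5.04 and 9.76 ± 1.91 CPM (0.90, SE 0.15). Cidea, often used as a brown fat marker, averaged 47.0 ± 45.4 CPM in iWAT and 16.7 ± 4.41 CPM in the pituitary. Its log2 fold change was 1.51 (SE 0.47, adjusted p = 0.0057), and 0.92 without the libraries of mouse 50. The 5 iWAT libraries KO 31, KO 35, KO 66, WT 33 and WT 34 lay within or below the pituitary range of 11.3 to 24.0 CPM. Cox7a1 averaged 3.85 ± 3.49 CPM in iWAT and 1.39 ± 0.322 CPM in the pituitary (1.42, SE 0.34, adjusted p = 0.000667).

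Dio2 ran the other way. It averaged 1.64 ± 1.37 CPM in iWAT and 98.8 ± 17.4 CPM in the pituitary, where thyrotrophs, the cells that make thyroid-stimulating hormone, use the enzyme to sense circulating thyroxine. Pituitary levels lay between 72.3 and 133.3 CPM in each library, and iWAT levels between 0.324 and 5.25 CPM. The log2 fold change was −5.99 (SE 0.30, adjusted p = 4.192e-13). Thyrotroph markers (5 genes: Tshb, Cga, Trhr, Pou1f1 and Gata2) summed to 2422 to 2758 CPM in KO and 2740 to 3441 CPM in WT pituitaries. In iWAT they summed to 8.26 to 17.0 CPM. They are not all particular to thyrotrophs, since Pou1f1 is also among the growth hormone and prolactin cell markers used here. KO 32, which held 113.4 CPM of growth hormone and prolactin cell markers in iWAT, had 1.59 CPM of Dio2, and KO 50 had 1.58 CPM. Those markers summed to 87283 CPM or more in each pituitary library. At so small a share the Dio2 levels cannot show whether pituitary RNA added to them, and this was not tested.

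**Figure D5:**
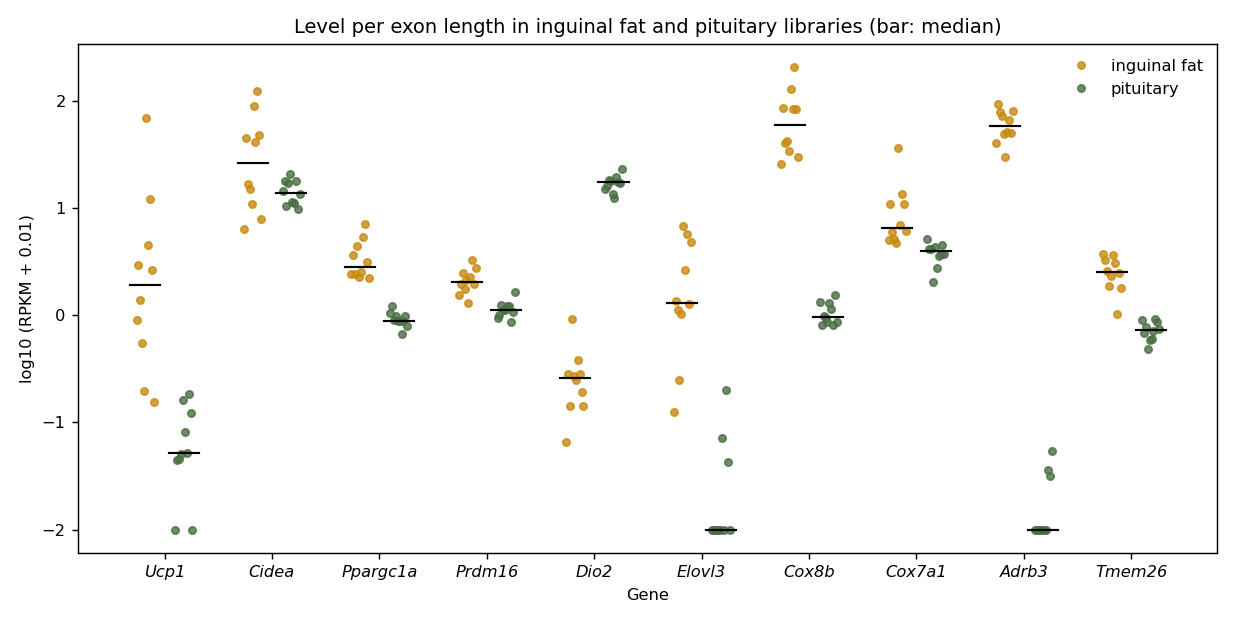
Level per exon length, as log10 of RPKM plus 0.01, of each gene in 10 iWAT libraries (left of each pair) and 10 pituitary libraries (right), with the median as a bar. Dio2 is the sole gene with a lower median in iWAT, and Adrb3, Elovl3 and Ucp1 lie near 0 RPKM in the pituitary.

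Per exon length (RPKM, CPM per kilobase of counted exon), the order in iWAT was Cox8b at 75.6 ± 56.2, Adrb3 at 60.8 ± 19.9, Cidea at 40.4 ± 39.0, Cox7a1 at 10.5 ± 9.53 and Ucp1 at 9.39 ± 21.1 RPKM (SD, n = 10). Then came Ppargc1a at 3.53 ± 1.61, Tmem26 at 2.57 ± 0.864, Elovl3 at 2.49 ± 2.39, Prdm16 at 2.12 ± 0.586 and Dio2 at 0.282 ± 0.236 RPKM. Of neighbours in this order, the ranges of Dio2 and Prdm16 over the 10 libraries did not overlap and those of all other neighbours did. In the pituitary Dio2 led at 17.0 ± 2.999 RPKM, followed by Cidea at 14.3 ± 3.79 and Cox7a1 at 3.79 ± 0.880 RPKM. Dio2 and Cidea overlapped there, whereas Cidea and Cox7a1 did not. Prdm16, Cox8b, Ppargc1a and Tmem26 followed between 1.13 and 0.717 RPKM with overlapping ranges, and Ucp1, Elovl3 and Adrb3 were at 0.0664 RPKM or less.

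Close relatives of the members showed other tissue patterns. Ucp2 was at 253.5 ± 45.9 CPM in iWAT and 242.6 ± 14.8 CPM in the pituitary (log2 fold change 0.06, SE 0.09, adjusted p = 0.507). Ucp3 was at 47.1 ± 24.7 CPM in iWAT and 1.57 ± 0.711 CPM in the pituitary (4.93, SE 0.32). Cidec, which helps build the single large droplet of white adipocytes, was at 1914 ± 788.3 CPM in iWAT and 0.0728 CPM in the pituitary. Per exon length in iWAT, Adrb3 at 60.8 ± 19.9 RPKM stood above its relative Adrb1 at 1.403 ± 0.429 RPKM. The widely expressed Cox8a was at 260.1 ± 92.6 RPKM in iWAT, against 75.6 ± 56.2 RPKM for Cox8b. Of the deiodinases, Dio1 was at 1.23 ± 1.55 CPM in iWAT and 1.38 ± 0.339 CPM in the pituitary, and Dio3 at 0.169 and 0.206 CPM. Of 19 paralogues tested, 11 were higher and 3 lower in iWAT (43.3% and 41.2% of all genes), the lower being Elovl4, Elovl7 and Cox7a2l.

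Genes of the surrounding pathways are given beside the same background of 43.3% of all genes higher and 41.2% lower in iWAT. Of 27 transcriptional regulators 19 were higher in iWAT, including Pparg (log2 fold change 7.27), Cebpa (7.65), Irf4 (7.71) and Ebf2 (4.76), and 7 were lower, including Esrrg (−2.83), Rxrg (−2.14) and Zfp516 (−1.41). Of 21 adrenergic and cAMP genes 14 were higher, including Adcy4 (3.49) and Pde3b (3.25), which encodes the phosphodiesterase that insulin activates in fat cells, and 6 were lower, including Gnas (−2.69), the stimulatory G protein. Of 36 other brown and beige markers 27 were higher, including Lpl (7.25), Slc36a2 (9.42), Ebf3 (5.33) and Lhx8 (5.19), and 4 were lower: Acot11 (−3.14), Ntrk3 (−2.83), Zic1 (−3.46) and Clstn3 (−1.62). Zic1, a marker of classical brown fat, averaged 0.173 CPM in iWAT and 1.99 CPM in the pituitary. Of 16 genes of UCP1-independent heat production 7 were higher, including Gpd1 (4.73) and Slc25a5 (1.42), and 7 lower, including the creatine kinases Ckmt1 (−6.85) and Ckb (−2.49). Of 22 genes of the respiratory chain list 21 were higher, led by Cox5a (2.12), and Cox7a2l (−0.44) was lower. Of 9 thyroid hormone genes 4 were higher, including the transporter Slc16a10 (4.09) and Thrsp (2.51), and 3 were lower, including the receptor Thrb (−1.22).

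Within the pituitary 6 members had enough counts to be tested between KO and WT, and none passed, where 90 of 16389 genes did (0.549%; 0.415% higher and 0.134% lower in KO). The KO and WT libraries overlapped for each of the 10 members and did not overlap for 2.85% of genes. Ucp1, Elovl3, Cox8b and Adrb3 were not tested, and their libraries held 0 to 9 counts. Cidea was at 16.7, 20.7, 24.0, 20.7 and 15.5 CPM in KO 31, KO 32, KO 35, KO 50 and KO 66. In WT 33, WT 34, WT 48, WT 49 and WT 56 it was at 12.01, 19.7, 13.1, 12.8 and 11.3 CPM. All KO libraries lay above 4 of the WT libraries, and WT 34 lay among them. The means were 19.5 ± 3.43 CPM in KO and 13.8 ± 3.37 CPM in WT, a log2 fold change of 0.51 (SE 0.16, unadjusted p = 0.00735, edgeR adjusted p = 0.2196). It passed without WT 34 (0.66, adjusted p = 0.0345), was 0.28 among mice of 21 weeks (adjusted p = 0.914) and 0.43 with age in the fit (0.458). In this comparison 10.9% of genes were under 0.05 unadjusted.

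Dio2, the member most abundant in the pituitary, was at 98.9 ± 21.1 CPM in KO and 98.8 ± 15.5 CPM in WT (log2 fold change 0.00, SE 0.16, 2 standard errors spanning −0.31 to 0.31). The other tested members had log2 fold changes of 0.30 (SE 0.23) for Cox7a1, 0.16 (SE 0.18) for Tmem26, 0.12 (SE 0.14) for Ppargc1a and −0.09 (SE 0.15) for Prdm16. Of 129 genes tested in the 7 pathway lists 1 passed (0.775%, against 0.549% of all genes), Slc27a2, a fatty acid transporter and acyl-CoA synthetase from the list of other brown and beige markers, which was higher in KO (log2 fold change 0.44, SE 0.07, adjusted p = 0.0138). Whether the KO and WT difference itself differed between iWAT and pituitary was tested in 1 fit over all libraries. It did not pass for any of the 10 members or for any of 17731 genes (0%; 428 genes, 2.41%, under 0.05 unadjusted, and 1 gene by DESeq2), and the smallest unadjusted p among members was 0.117, for Dio2.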

How the data were processed

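For each gene the deposited tables hold raw read counts as whole numbers, which the authors made with featureCounts 1.4.4 over exons of an mm10 gene annotation, per the file headers. Primary alignments were used, a read overlapping several genes counted for each, and no strand option is given. The submitters' processing notes name STAR 2.4.0. KO was set against WT within 1 tissue at a time in edgeR 4.0.16 under R 4.3.3 (genes kept by filterByExpr, TMM, robust quasi-likelihood test, Benjamini-Hochberg adjustment over all genes tested, threshold 0.05). Tissues and the interaction were fitted over all 20 libraries. Standard errors were obtained by dividing log2 fold changes by the root of F. Printed CPM share 1 TMM scaling over 20 libraries, and log2 CPM uses a prior count of 2. Correlations used 100000 permutations. Alternatives were RLE scaling, no filter, DESeq2 1.42.0, age, mice of 21 weeks and cell type scores. Further ones were the mouse number as a block and a fit over both tissues. Each library was also left out in turn, or each mouse number where both tissues were fitted. Fits were tested on simulated counts. All libraries of a group differed beyond sampling noise (smallest reduced chi-square 4.51). Libraries of a tissue carry different numbers in their titles, but no label says in words that these are separate animals, so p-values measure the spread between libraries, which may be technical. All members were named. From each list up to 4 called genes per direction and the highest per length could be named, with all paralogues and the 8 genes most like Ucp1 or the member mean; not all of these are given, and some are not reported here. Klf14 and Pitx3 are named besides, and list genes with an r of 0.7 or more, single examples and the lowest members were chosen after their values were seen. Members and lists were chosen with earlier results of these data known. Of the list genes all had a row, some under an older symbol.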

Additional observations from a re-analysis of the deposited data

Results flagged for a closer look

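Of 37 groups of 5 libraries compared, 7 held a library whose gap to its nearest neighbour exceeded 0.71 of the group's range in CPM. Chance flags about 1 in 20 groups of normally distributed values. CPM were not put on a log scale here, so that rate need not hold, and all 7 flags fell on the highest library. In iWAT these were Ucp1 in KO 50 (20.03 CPM) and in WT 48 (112.8 CPM), Ppargc1a in KO 50 (45.5 CPM) and Cox7a1 in WT 48 (13.3 CPM), each the highest of its 5 libraries. In the pituitary they were Elovl3 in KO 50 (0.360 CPM, from 5 counts), Cox8b in KO 31 (0.479 CPM, from 9 counts) and Cidea in WT 34 (19.7 CPM). KO 50 also had the lowest B and T cell markers and the highest adipocyte markers in iWAT, and WT 48 the lowest adipocyte markers; their part in these levels was not tested.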

How the results depend on the processing

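In iWAT, 0 members and 0 genes passed between KO and WT under every alternative run, and in the pituitary 0 members passed except without WT 34, where 1 did (Cidea). The direction of small fold changes in iWAT was not stable. With age in the fit the log2 fold change turned to 0.49 for Cidea, 0.087 for Ppargc1a and 0.45 for Cox8b. Among mice of 21 weeks it turned to 0.072 for Ucp1, 0.14 for Cidea, −0.020 for Prdm16, 0.075 for Cox8b, 0.25 for Cox7a1, −0.20 for Adrb3 and 0.29 for Tmem26. It was 0.12 for Ppargc1a with the muscle score and 0.0049 for Cox8b in a fit over both tissues. Leaving out each library gave −3.98 to 0.47 for Ucp1, −1.28 to 0.31 for Cidea, −0.46 to 0.13 for Ppargc1a, −0.42 to 0.96 for Elovl3, −0.81 to 0.24 for Cox8b, −1.0005 to 0.10 for Cox7a1 and −0.39 to 0.0050 for Tmem26. In the pituitary Dio2 ran between −0.13 and 0.077 across the libraries left out, and was −0.021 with age and −0.10 among mice of 21 weeks; Cidea ran between 0.42 and 0.66. The number of pituitary genes called, 90, was 288 with DESeq2, 44 with age, 5 among mice of 21 weeks, 1 in the fit over both tissues and 50 to 112 leaving out each library, with 0 to 1 members among them. For r with Ucp1, Dio2 was −0.031 on deviations from group means and −0.048 at 21 weeks, where Elovl3 was −0.28 and Adrb3 0.33; correlations at 21 weeks and slopes with age were added after seeing the data. Leaving out each library gave −0.61 to 0.28 for Prdm16, −0.57 to 0.02 for Adrb3, −0.16 to 0.71 for Tmem26 and −0.0092 to 0.40 for Dio2. For the difference between tissues in the KO effect, each mouse number was left out of both tissues. This gave −3.58 to 0.31 for Ucp1, −0.61 to 0.094 for Ppargc1a, −1.18 to 2.14 for Elovl3 and −0.54 to 0.72 for Cox8b. The slopes with age ran from −0.27 to 0.45 for Dio2, −0.15 to 0.056 for Prdm16 and −0.15 to 0.27 for Tmem26. In all these cases the cause was not tested. Between tissues, 14776 to 15155 genes and all 10 members passed when each mouse number was left out, and 10 members under each scaling. The tissues share mouse numbers, each with the same genotype label and age in both, but no label says that a number is 1 animal, and same-numbered libraries deviated together with correlations of −0.06 to 0.10, with 3 of 10 closest to their own number; with a replicate block 14880 genes and 9 members passed (Cidea 0.89, adjusted p = 0.0834, against 14976 and 10 without the block), and 0 members for the interaction. Depth limits Ucp1, Elovl3, Adrb3 and Cox8b in the pituitary and Dio2 in iWAT.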

Other observations

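The ages of the mice were looked at after the values had been seen. In iWAT the 4 libraries of 18 or 19 weeks (WT 56, WT 48, WT 49 and KO 50) included the 3 with the most Ucp1 in all. Ucp1 ranged over 4.32 to 112.8 CPM (median 13.7) at 18 or 19 weeks and 0.239 to 4.76 CPM (median 1.18) at 21 weeks. Cidea ranged over 48.1 to 143.6 CPM (median 79.8) and 7.34 to 52.5 CPM (median 15.1), and Cox8b over 30.1 to 74.5 CPM (median 38.4) and 9.34 to 30.8 CPM (median 13.4). The ranges overlapped through a single library of 21 weeks, KO 32. With the label in the fit, the log2 change per week was −1.88 for Ucp1 (SE 0.68), −0.99 for Cidea (SE 0.29), −0.71 for Cox8b (SE 0.19) and −0.57 for Cox7a1 (SE 0.27), with an edgeR adjusted p = 0.9007 for each. In that fit 0 of 16105 genes passed (784 genes, 4.87%, were under 0.05 unadjusted). The slopes of these 4 genes were negative with each library left out. In the same fit negative slopes were counted for 21 of 22 genes of the respiratory chain list (median −0.16), 29 of 35 other brown and beige markers (−0.14) and 13 of 18 paralogues (−0.15). They were also counted for 8 of 9 thyroid hormone genes (−0.11), 22 of 27 transcriptional regulators (−0.04), 8 of 15 genes of UCP1-independent heat production (−0.02) and 11 of 21 adrenergic and cAMP genes (−0.01). Over all genes 46.8% had a negative slope (median 0.01), and 0 list genes passed. In the pituitary the slope was 0.08 for Cidea and −0.05 for Cox7a1, and 0 genes passed. Age and label are partly confounded, since 4 of 5 KO but 2 of 5 WT mice were 21 weeks old, and which litters or days the ages came from was not analysed here.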
